A study of Mus musculus with 2 samples.

Results

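The Stem cells described here are the 256 cells that carried the authors' annotation Stem among 3275 annotated cells from the crypts of 2 mice that lack the microRNA miR-375. Mouse 1 gave 139 of them and mouse 2 gave 117. The annotation came from 1 of 18 clusters, which the authors drew over these cells together with cells of other libraries. The 18 are the cluster numbers in the deposited annotation, while the study's methods state a smaller number of clusters. The other 8 epithelial types of the same annotation, with 2951 cells, were transit-amplifying (TA) cells, secretory progenitors, goblet progenitors, goblet cells, Paneth cells, enteroendocrine cells (EEC), tuft cells and enterocytes.

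Both animals were male, aged 12 months and labelled 375KO. Their whole body carried a CRISPR/Cas9 deletion of miR-375, so every cell type compared here carried it, and no promoter or Cre line restricted it. The labels give the strain as C57BL6/2J, while the study's methods describe founders of mixed FVB background crossed to B6 albino mice for at least 3 generations. Crypts were taken from the jejunum, the middle part of the small intestine, and 1 droplet library was made per mouse. The question put to the data was which genes set the annotated stem cells apart from the other crypt cells of the same mice. Wild-type libraries were not used here, so no value below measures the effect of losing miR-375. The gene for miR-375 is not among the 27998 genes counted, and the deletion could not be checked in these libraries.

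Crypt base columnar stem cells sit at the bottom of each intestinal crypt, wedged between Paneth cells, and renew the epithelium by dividing. Wnt and R-spondin signals from the surrounding niche keep them in the stem state, with Notch and EGF signals beside them, while BMP signals rise toward the villus and oppose it. Daughter cells that leave the base divide rapidly as TA cells and then become absorptive enterocytes or one of the secretory types.

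The 2 libraries held 64305085 and 23675011 UMIs (unique molecular identifiers, which count captured RNA molecules once each) and shared 0 cell barcodes. The authors' filters and annotation left 2082 cells of mouse 1 and 1193 of mouse 2. A Stem cell held a median of 12282 UMIs from 3034 genes in mouse 1 and 12559 UMIs from 2887 genes in mouse 2, less than the TA medians of 20811 and 16966 UMIs. Mitochondrial transcripts took a median of 10.2% and 5.90% of the UMIs of a Stem cell. None of the Stem cells was called a doublet by the authors' caller. Levels are given as CPM, the UMIs of a gene per 1000000 UMIs summed over all Stem cells of a mouse. The Stem sums held 1783854 and 1604263 UMIs, at which 3 UMIs correspond to 1.68 and 1.87 CPM. Intervals on levels and shares are 95% and cover counting error only.

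Stem cells made up 6.68% of the annotated cells of mouse 1 (exact binomial interval 5.64 to 7.83) and 9.81% of those of mouse 2 (8.18 to 11.6). The mean was 8.24% ± 2.21 (SD, n = 2). The intervals of the 2 mice did not overlap, but they treat cells as the units and do not test a difference between animals. With a stricter cell filter (at least 2500 genes, at most 10% mitochondrial reads) they overlapped, at 6.30% (4.76 to 8.16) and 9.36% (7.59 to 11.4).

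All 5 genes by which the type was checked were at their highest in Stem cells, in both mice, among the 9 epithelial types. They are Lgr5, a receptor for R-spondins, Olfm4, a secreted glycoprotein of the crypt base, Smoc2, a secreted calcium-binding matrix protein, Slc12a2, a sodium, potassium and chloride cotransporter, and Axin2, a negative feedback regulator and target of Wnt signalling. Because the authors named the types from expression in the same cells, these levels check the label and are no independent finding.

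Lgr5 (chr10:115450311-115587780, minus strand, mm10) stood at 54.9 CPM in the Stem cells of mouse 1 (98 UMIs, Poisson interval 44.6 to 67.0) and at 28.1 CPM in those of mouse 2 (45 UMIs, 20.5 to 37.5). Tuft cells came next with 14.5 and 12.5 CPM, then EEC with 12.9 and 4.64 CPM and TA cells with 9.01 and 7.69 CPM, and enterocytes had 0.103 and 0 CPM. The lower of the 2 Stem values was above every value in another type.

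Olfm4 (chr14:79984081-80023139, plus strand) differed most between the animals, with 313 CPM in mouse 1 (558 UMIs, 287 to 340) and 14.3 CPM in mouse 2 (23 UMIs, 9.09 to 21.5). TA cells had 47.8 and 4.20 CPM and secretory progenitors 56.5 and 0 CPM. Within each mouse the Stem level was the highest, but the Stem cells of mouse 2 held less Olfm4 RNA than the TA cells of mouse 1.

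Smoc2 (chr17:14279506-14404790, plus strand) was even between the mice, with 132 CPM (235 UMIs) and 118 CPM (190 UMIs). EEC at 110 and 88.2 CPM and tuft cells at 104 and 94.7 CPM stood close behind, and TA cells had 62.7 and 65.2 CPM. Slc12a2 reached 545 CPM (972 UMIs, 511 to 580) and 308 CPM (494 UMIs, 281 to 336), against 367 and 116 CPM in secretory progenitors and 206 and 143 CPM in TA cells. Its Stem level in mouse 2 lay below the secretory progenitor level in mouse 1, so those groups overlapped.

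Axin2 (chr11:108920349-108950783, plus strand) stood at 85.8 CPM (153 UMIs) and 90.4 CPM (145 UMIs) in Stem cells. EEC had 54.8 and 55.7 CPM and TA cells 46.4 and 57.2 CPM. No value of another type reached either Stem value.

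**Figure D1:**
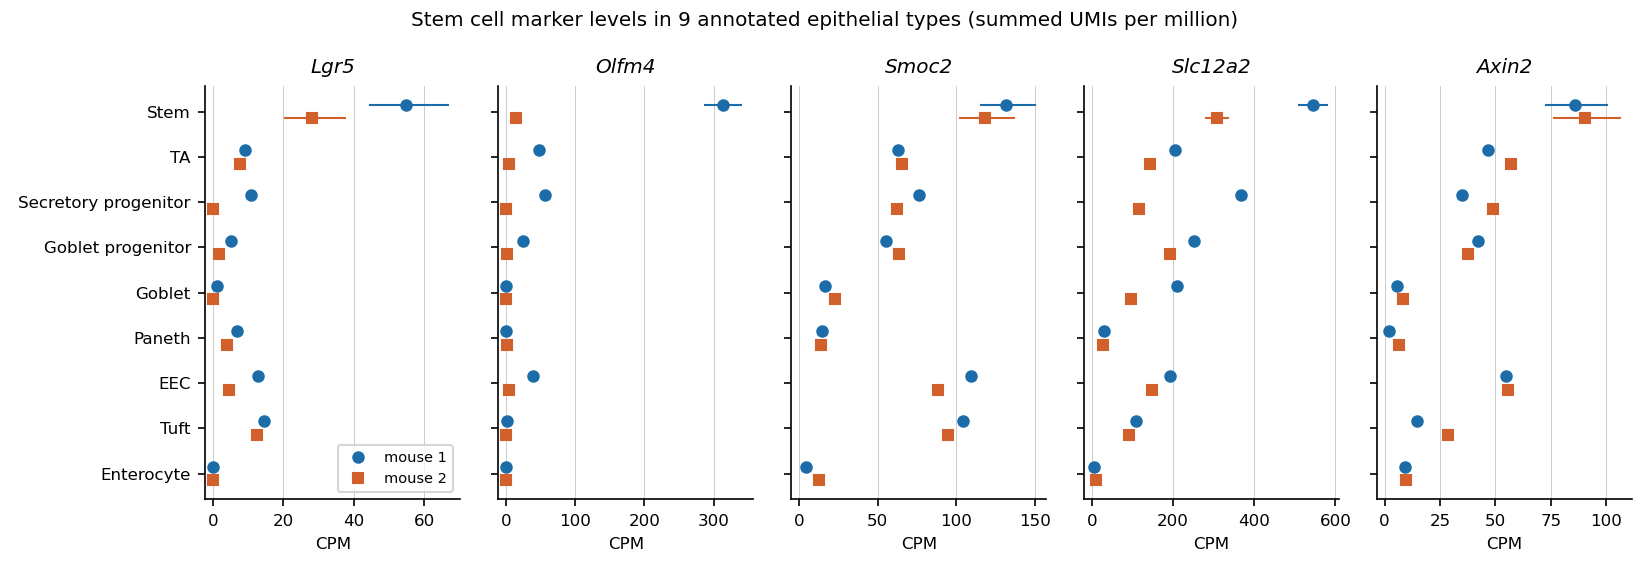
Levels of the 5 stem cell markers in CPM (horizontal axes, linear, one scale per gene) in the 9 annotated epithelial types; each point is the summed cells of 1 mouse and the lines on the Stem points are 95% Poisson intervals. The Stem point is the rightmost of its mouse in each panel, and Olfm4 shows the gap between mouse 1 (313 CPM) and mouse 2 (14.3 CPM).

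To compare single cells at equal depth, each cell was thinned at random to 5000 UMIs, which left out 3 Stem cells of mouse 1 and none of mouse 2. A Lgr5 UMI was then found in 20.6% of Stem cells of mouse 1 and 16.2% of mouse 2, against 3.75% and 3.10% of TA cells. Smoc2 was seen in 43.4% and 46.2% of Stem cells and 24.7% and 26.6% of TA cells, Axin2 in 34.6% and 27.4% against 18.4% and 20.1%, and Slc12a2 in 85.3% and 67.5% against 42.5% and 43.7%. Olfm4 was in 66.2% of the Stem cells of mouse 1 and in 7.69% of those of mouse 2, against 15.3% and 2.48% of TA cells. In mouse 2 the intervals of Stem cells (3.58 to 14.1) and TA cells (1.08 to 4.82) overlapped.

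Enterocytes, which should lack these transcripts, were set beside them at the same depth. None of 930 and 382 enterocytes held a Lgr5 UMI, which allows shares up to 0.396% and 0.961%, and none held an Olfm4 UMI. Smoc2 was in 1.61% and 5.50% of them, Slc12a2 in 2.37% and 3.66% and Axin2 in 4.41% and 4.97%. If ambient RNA was subtracted before deposit, which is not stated, these shares understate the background of free RNA. The Stem shares of all 5 genes were above the enterocyte shares. Without thinning, at the median depths given above, a Lgr5 UMI was in 32.4% and 24.8% of Stem cells and a Smoc2 UMI in 71.2% and 71.8%.

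A single Stem cell rarely showed the whole set. At 5000 UMIs, 94.9% of Stem cells of mouse 1 and 83.8% of mouse 2 held a UMI of at least 1 of the 5 markers. This was not particular to Stem cells. Secretory progenitors gave 87.1% and 73.7%, goblet progenitors 75.3% and 72.6%, goblet cells 63.8% and 47.1% and TA cells 57.2% and 61.6%. At least 3 markers were seen in 48.5% and 20.5% of Stem cells and in 12.8% and 7.43% of TA cells. All 5 were seen together in 8 Stem cells of mouse 1 and in none of mouse 2.

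**Figure D2:**
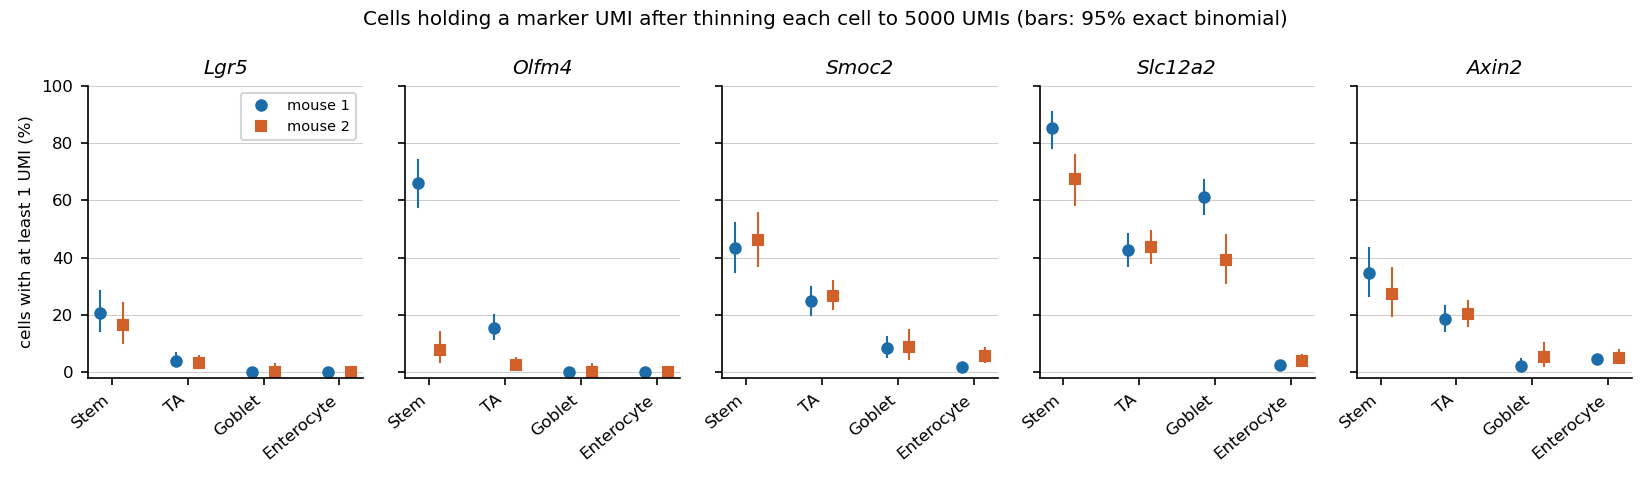
Share of cells with at least 1 UMI of each marker (vertical axis, percent) in 4 types after thinning every cell to 5000 UMIs; points are mice and lines are 95% exact binomial intervals. Stem cells lie above TA cells, goblet cells and enterocytes of the same mouse for each gene, with the widest gap between mice for Olfm4 (66.2% and 7.69%).

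Signature genes of the mature types were low in Stem cells. The goblet cell list summed to 581 and 217 CPM in Stem cells against 184477 and 164890 CPM in goblet cells, and the Paneth list to 201 and 10.0 CPM against 513019 and 406387 CPM in Paneth cells. The EEC list gave 12.9 and 1.87 CPM and the tuft list 1.12 and 1.25 CPM. Neurog3, the transcription factor that starts the enteroendocrine fate, and Dclk1 and Trpm5, which mark tuft cells, had 0 UMIs in the Stem cells of both mice. Of the 8 genes of the intraepithelial lymphocyte list, 6 had 0 UMIs in the Stem cells of mouse 1 and 1 in those of mouse 2, where the list summed to 91.6 CPM. The TA list, made of cell cycle genes, summed to 1244 and 962 CPM in Stem cells and to 1974 and 1617 CPM in TA cells.

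Against the mean of the other 8 types, Stem cells carried more RNA of crypt base genes, Wnt target genes, DNA replication genes and ribosome biogenesis genes, and less of some immediate early genes (5 of 13) and of the cell cycle inhibitors Cdkn1a and Cdkn2b. UMIs were summed per mouse and type and compared with edgeR's quasi-likelihood test, with the mouse as a block and Benjamini-Hochberg adjustment over the 11013 genes tested. Of these, 1701 (15.4%) were higher in Stem cells and 1114 (10.1%) lower at an adjusted p under 0.05, with a median log2 fold change of 0.03 over all genes. These shares are the background for the list counts against this mean. The balance depends on how the other types are weighted: against the other epithelial cells pooled by number, 4388 genes passed and 39.9% of them were higher, compared with 60.4% here. Since the authors drew the classes from the same expression values, these calls describe how far apart the annotated classes stand, and the p-values rest on the spread between 2 mice and 9 types. Errors on log2 fold changes are SE.

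Among 28 further genes known from crypt base cells, 23 were higher in Stem cells and 1 was lower, with a median log2 fold change of 1.74 (over all genes, 15.4% were higher and the median was 0.03). The list is not particular to Stem cells: it summed to 2608 and 2843 CPM in them and to 3666 and 7316 CPM in tuft cells. Secretory progenitors, at 2252 and 2923 CPM, were also above Stem cells in mouse 2. Cdca7, a cell division cycle associated protein and target of Myc, stood at 197 and 199 CPM in the Stem cells of mouse 1 and 2 and at 60.7 and 84.5 CPM in TA cells. Its log2 fold change was 2.88 ± 0.15, and both Stem values were above all 16 values of the other types.

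Igfbp4, which binds insulin-like growth factors and can restrain Wnt signalling, had 62.8 and 66.7 CPM in Stem cells and 18.1 and 18.5 CPM in TA cells, a log2 fold change of 3.26 ± 0.28 against the mean of the other types. Gkn3, a gastrokine, had 64.5 and 31.2 CPM (3.68 ± 0.43). Ascl2, the transcription factor that with Wnt signalling maintains the stem state, had 60.0 and 59.8 CPM (2.90 ± 0.25), but tuft cells held more, with 106 and 120 CPM. Prelp, a small leucine-rich matrix proteoglycan, had 26.9 and 38.0 CPM (2.67 ± 0.32).

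In the Wnt pathway the genes that were higher in Stem cells were receptors and targets. Among 13 tested receptors and receptor regulators 5 were higher, with a median of 0.58: Lgr5, Fzd2 (2.34 ± 0.47), Rnf43 (1.61 ± 0.21), Fzd7 (1.58 ± 0.36) and Fzd5 (0.49 ± 0.18). Rnf43, the ubiquitin ligase that removes Frizzled receptors from the surface and is itself a Wnt target, stood at 54.4 and 29.3 CPM in Stem cells and 23.6 and 18.5 CPM in TA cells. Fzd7, a Frizzled receptor tied to stem cell renewal, was low in all types and highest in Stem cells, with 12.3 and 11.8 CPM. Lgr4, another R-spondin receptor, stood at 58.3 and 64.8 CPM in Stem cells and 62.9 and 80.8 CPM in TA cells, and its log2 fold change of 0.07 ± 0.19 did not pass the test. The coreceptors Lrp5 and Lrp6 did not pass either (-0.25 ± 0.29 and 0.14 ± 0.19).

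Of 15 transducers 2 passed the test, both lower, beside 10.1% lower over all genes. They were the kinase gene Csnk1a1 (-0.40 ± 0.12) and the nuclear partner of beta-catenin Tcf7l2 (-0.65 ± 0.21). Their list had a median of -0.10. Ctnnb1, which encodes beta-catenin, stood at 197 and 151 CPM in Stem cells and 200.1 and 172 CPM in TA cells, with a log2 fold change of -0.08 ± 0.12 that did not pass. Of 9 ligand genes, only Wnt3 was abundant enough to be tested, and it was lower. The Stem cells held 1 Wnt3 UMI in each mouse, while EEC had 30.6 and 51.1 CPM and Paneth cells, a known Wnt3 source, 39.3 and 28.9 CPM.

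Among 14 Wnt target genes 10 were higher, with a median of 1.67. Tuft cells stood near Stem cells in the list's sum, with 764 and 723 CPM against 779 and 685 CPM. Sp5, a transcription factor that Wnt signals induce, stood at 24.1 and 12.5 CPM in Stem cells against 5.92 and 4.02 CPM in TA cells (3.11 ± 0.45). Tnfrsf19, a receptor of the tumour necrosis factor family also called Troy, had 6.73 and 9.97 CPM (3.38 ± 0.63). Myc, the growth regulator, was higher in mouse 2 (105 CPM) than in mouse 1 (46.0 CPM), but within each mouse Stem cells ranked first, with a log2 fold change of 2.34 ± 0.20. Cd44, a hyaluronan receptor, was second to EEC in both mice (1.81 ± 0.30). The list shares Lgr5, Axin2, Ascl2 and Rnf43 with the lists above.

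Of 5 tested Notch receptor and ligand genes, both receptors were higher, 2 ligands were lower and the ligand Jag1 did not pass (0.69 ± 0.44). Notch1 had 25.2 and 31.8 CPM in Stem cells (1.49 ± 0.29), and Notch2 4.48 and 11.8 CPM (3.15 ± 0.71). The ligand genes Dll1, with 12.3 and 11.2 CPM against 180 and 196 CPM in secretory progenitors, and Dll4 were lower (-1.25 ± 0.30 and -2.50 ± 0.51). With 2 genes each way, the list's median of 0.69 has no stable sign, being -1.15 at 5000 UMIs per cell and -0.09 against the pooled other cells. Of 14 processing and effector genes, 2 were higher, a share close to the 15.4% over all genes. They were Hes1, the repressor that Notch induces to block the secretory fate, with 108 and 121 CPM (1.78 ± 0.18), and Nrarp, a feedback inhibitor of Notch (1.72 ± 0.24). Hes1 was at its highest in Stem cells in both mice.

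In the EGF list 2 of 8 genes were higher, Lrig1, a brake on EGF receptors (0.81 ± 0.21), and the ligand Btc (2.17 ± 0.70, on 5.61 and 5.61 CPM), while Egfr itself had 15.7 and 11.2 CPM and 0.78 ± 0.32. In the BMP list 2 of 13 were higher, a share close to the 15.4% over all genes: the target genes Id1 (1.18 ± 0.27) and Id3 (0.53 ± 0.17). The receptor gene Bmpr1a gave -0.06 ± 0.19 and did not pass.

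Genes proposed for reserve stem cells split. Msi1, an RNA-binding protein of neural and intestinal progenitors, was higher (2.26 ± 0.32), as were Mex3a (1.45 ± 0.44) and Lrig1, and Prox1 was lower, with 2 UMIs in mouse 1 and 0 in mouse 2. Hopx and Bmi1 did not pass, at -0.05 ± 0.17 and 0.06 ± 0.28. Of 24 crypt transcription factors, 7 were higher and 2 lower. Sox4, a progenitor factor, had 211 and 168 CPM in Stem cells (1.22 ± 0.20), and Klf4, a factor of mature goblet cells and of cells leaving the cycle, had 12.9 and 7.48 CPM against 522 and 382 CPM in goblet cells (-3.31 ± 0.29).

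Genes for making ribosomes moved as a block: 20 of 24 were higher, with a median of 1.22, and 14 were at their highest in Stem cells in both mice. Ncl, encoding nucleolin, stood at 951 and 661 CPM in Stem cells and 791 and 531 CPM in TA cells (1.36 ± 0.14). Npm1, encoding nucleophosmin, had 2043 and 1376 CPM (1.42 ± 0.23), and Fbl, the methyltransferase of ribosomal RNA, 281 and 239 CPM (1.26 ± 0.14). The gap to TA cells was small, with a median log2 fold change of 0.38. None of the 24 passed edgeR's quasi-likelihood test against TA cells, 5 had an unadjusted p under 0.05, all of them higher, and none passed with DESeq2.

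Of 14 genes of fatty acid oxidation and ketone bodies 4 were higher, among them Acat1, a thiolase (0.77 ± 0.18), and Bdh1, which interconverts ketone bodies (0.60 ± 0.15). Cpt1a, which admits fatty acids to mitochondria, did not pass (-0.06 ± 0.18). Against the other cells pooled by number, which are mostly enterocytes and TA cells, 1 gene of this list was higher and 9 were lower. Of 17 glycolysis and pyruvate genes 2 were higher and 2 lower, beside 15.4% higher and 10.1% lower over all genes. Against the pooled cells 1 was higher and 7 were lower. In the serine and one-carbon list 7 of 11 were higher. Phgdh, the first enzyme of serine synthesis, had 52.1 and 43.0 CPM (1.89 ± 0.20), and Shmt1, which moves carbon from serine to folate, 94.7 and 86.0 CPM (2.29 ± 0.25).

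For surface genes that place cells along the crypt, the shares over all genes to set beside the counts are 15.4% higher and 10.1% lower. The lists are short, so no excess over these shares is claimed. Of 11 Eph receptors and ephrins 3 were higher, among them Efna4 (1.94 ± 0.21) and Ephb4 (0.93 ± 0.20), and none was lower. Ephb2 and Ephb3, the receptors that hold cells at the crypt base, stood at 37.0 and 48.0 CPM and at 5.05 and 6.86 CPM, and neither passed (0.48 ± 0.21 and 0.63 ± 0.45). Among 18 adhesion genes 3 were higher and 1 lower. Cldn2, a pore-forming claudin of crypts, had 67.3 and 63.0 CPM in Stem cells (1.78 ± 0.21), and Cdh17, the liver-intestine cadherin, was lower (-0.45 ± 0.13).

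Of 7 MHC class II genes, which present antigen, 4 were higher than the mean of the other types, with a median of 1.39. Cd74, the invariant chain, stood at 804 and 883 CPM in Stem cells, below enterocytes at 1306 and 1497 CPM and above TA cells at 563 and 666 CPM. Against the pooled other cells the median was -0.13, with 3 genes lower, so the direction of this list depends on how the other types are weighted.

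Immediate early genes, which respond within minutes to stimulation, gave 5 of 13 lower and 8 that did not pass, with a median of -1.52. TA cells were nearly as low: the list summed to 519 and 636 CPM in Stem cells and to 601 and 723 CPM in TA cells. Against TA cells 1 of the 13 was lower and 12 did not pass. Fos had 15.7 and 37.4 CPM in Stem cells, the lowest of the 9 types in both mice (-2.67 ± 0.61), and Junb had 25.2 and 35.5 CPM (-1.85 ± 0.38). Jund was lower by less (-0.93 ± 0.14), and Egr1 did not pass (-1.84 ± 0.66). Of 15 post-transcriptional regulators 3 were higher, beside 15.4% over all genes. They were Msi1, Arl4c (3.39 ± 0.84, on 5.05 and 4.99 CPM) and Zfp36l2, which destabilises AU-rich messages (1.39 ± 0.14). Its relative Zfp36 was lower (-1.52 ± 0.34), and Dicer1, Drosha and Ago2 of the microRNA machinery did not pass (0.13 ± 0.21, 0.40 ± 0.26 and -0.13 ± 0.17).

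**Figure D3:**
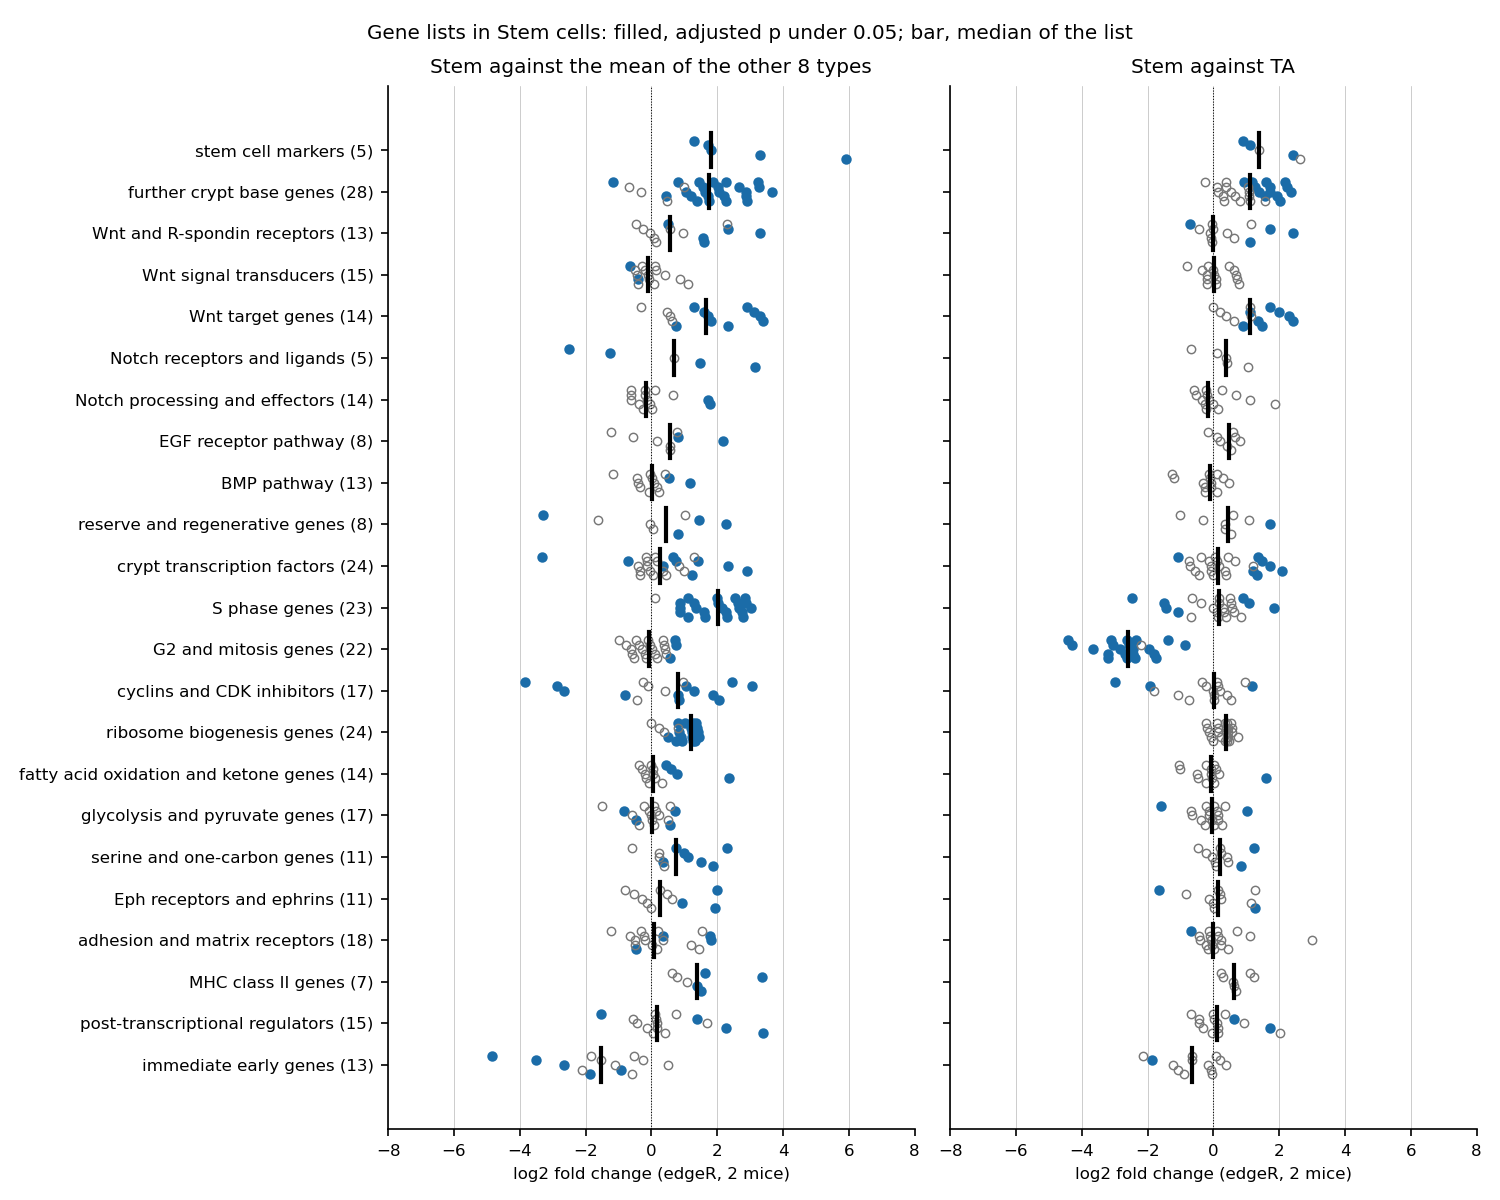
Log2 fold changes of the tested genes of 23 lists in Stem cells against the mean of the other 8 types (left) and against TA cells (right); each point is a gene, filled where the adjusted p was under 0.05, the black bar is the list's median, and the number tested stands after the name. Crypt base, Wnt target, S phase and ribosome biogenesis genes lie to the right on the left side, while on the right side the G2 and mitosis genes lie to the left, with a median of -2.59.

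Outside the lists, the 12 genes with the highest log2 fold change and at least 50 CPM in Stem cells of both mice included Rgcc, a regulator of the cell cycle, with 64.5 and 53.0 CPM against 12.9 and 20.1 CPM in TA cells (4.29 ± 0.37, or 3.09 without mouse 1 and 3.23 against the pooled other cells). Amica1, a junctional adhesion protein, had 192 and 248 CPM (2.99 ± 0.24), and Ifitm3, an interferon-induced antiviral membrane protein, 862 and 981 CPM (2.81 ± 0.12). Amica1 and Ifitm3 were at their highest in Stem cells in both mice, and Rgcc was so in mouse 1, while EEC held 60.3 CPM of it in mouse 2.

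Of the same 12, Cdt1 (2.32 ± 0.20) and Lig1 (2.06 ± 0.21) license and join DNA in replication, and Paics (2.07 ± 0.18) makes purines. Cps1 (1.78 ± 0.50) and Otc (1.97 ± 0.36) act in sequence in citrulline synthesis, with Cps1 at 792 and 635 CPM and Otc at 283 and 125 CPM. Fgfbp1 (2.28 ± 0.31), Acot1 (2.23 ± 0.22), Stmn1 (1.83 ± 0.29) and Cnn3 (1.76 ± 0.15) completed the set. Fgfbp1 releases fibroblast growth factors from the matrix, Acot1 cleaves fatty acyl-CoA, Stmn1 destabilises microtubules, and Cnn3 binds actin. Against the pooled other cells Fgfbp1 was at 0.81, Lig1 at 1.13, Stmn1 at 1.20, Cps1 at 1.0 and Otc at 0.13, which did not pass, and Cps1 did not pass with DESeq2 (1.83).

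The 6 lowest were products of mature cells. Clps, a pancreatic-type colipase, had 0 UMIs in the Stem cells of both mice and 5887 and 6156 CPM in Paneth cells. Sct, secretin, had 1 and 0 UMIs against 11132 and 7172 CPM in EEC, and Spink4 had 33.1 and 2.49 CPM against 26703 and 34299 CPM in goblet cells. Guca2a, guanylin, Hepacam2, a secretory lineage surface protein, and Krt20, a keratin of differentiated cells, held at most 11 UMIs in the Stem cells of either mouse. All 6 kept their direction under the alternative settings. Clps passed in 4 of 7 tested settings, Spink4 in 5, Guca2a and Krt20 in 6, and Sct and Hepacam2 in all 7.

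Taking each type in turn, 16 genes (0.145% of those tested) were higher in Stem cells than in each of the other 8 types. Ordered by the smallest of their 8 log2 fold changes they ran from Cdca7 (1.60), Amica1 (1.50), Prelp (1.31), Myc (1.17), Mcm6 (1.09) and Cdt1 (1.04) through Arid5b, Cdk6, Axin2, Cd3eap, Impdh2, Ifitm3, Bphl, Pdgfa and Zfp36l2 to Mif (0.59). Axin2 was the one stem cell marker among them. Lgr5 was higher than in 7 types and did not pass against Paneth cells, where 10 genes hold 82.6% and 81.9% of the UMIs and scaling between types (TMM) lifts the others. Unscaled, Paneth cells had 6.83 and 3.90 CPM of Lgr5 against the 54.9 and 28.1 CPM above, while the scaled log2 fold change was -0.24. Counted type by type, most genes differed from enterocytes (5650) and goblet cells (4274), and fewest from TA cells (532) and secretory progenitors (556). Secretory progenitors gave only 31 and 19 cells, with 460472 and 224086 UMIs against 8439649 and 5718329 UMIs in TA cells. The counts depend on such depth, so they do not rank the types by likeness to Stem cells.

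TA cells, the dividing daughters, were the natural neighbour to set beside Stem cells. This comparison uses the same Stem sums as the one above, so the 2 are not independent. Of 11013 genes, 209 (1.90%) were higher in Stem cells and 323 (2.93%) lower, with a median of -0.01. Stem cells held more RNA of crypt base and Wnt target genes, and TA cells held more of the genes of G2 and mitosis.

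Of the 5 markers, Lgr5 (2.41 ± 0.29), Smoc2 (1.10 ± 0.22) and Axin2 (0.90 ± 0.21) were higher than in TA cells. Olfm4 (2.62 ± 0.58) and Slc12a2 (1.39 ± 0.39) had adjusted p of 0.058 and 0.09 in edgeR's quasi-likelihood test and did not pass, though each was higher in Stem cells within both mice. Without mouse 1 the value of Olfm4 was 1.75. Among further crypt base genes 13 of 28 were higher, with a median of 1.11, and among Wnt targets 8 of 14, with a median of 1.12. The named genes included Rgcc (2.02 ± 0.35), Igfbp4 (1.94 ± 0.31), Acot1 (1.82 ± 0.26), Ifitm3 (1.80 ± 0.20), Ascl2 (1.73 ± 0.27) and Cdca7 (1.60 ± 0.20). Pdgfa, a growth factor for the mesenchyme under the crypt, stood at 119 and 69.8 CPM in Stem cells and 33.5 and 28.5 CPM in TA cells (1.72 ± 0.23).

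The cell cycle divided the 2 types by phase. Of 23 S phase genes, 22 were higher in Stem cells when set against the mean of the other types, with a median of 2.02, and against TA cells 3 were higher and 4 lower, with a median of 0.18. Mcm6, a subunit of the helicase that unwinds DNA for replication, stood at 128 and 95.4 CPM in Stem cells and 65.4 and 49.1 CPM in TA cells (1.09 ± 0.22 against TA). Ung, which removes uracil from DNA (1.84 ± 0.31), and Mcm2 (0.90 ± 0.26) were the other two. Rrm2, a subunit of ribonucleotide reductase, went the other way, with 12.3 and 5.61 CPM in Stem cells and 54.6 and 56.8 CPM in TA cells (-2.48 ± 0.34), and Clspn, Cdc45 and Rrm1 were also lower.

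Of 22 G2 and mitosis genes, 21 were lower in Stem cells than in TA cells, with a median of -2.59 against -0.01 over all genes. Aurkb, a kinase of chromosome segregation, had 3.36 and 1.87 CPM in Stem cells, or 6 and 3 UMIs, against 71.4 and 53.9 CPM in TA cells (-4.42 ± 0.38). Ube2c, which drives mitotic exit, had 59.4 and 43.0 CPM against 581 and 397 CPM (-3.12 ± 0.25), and Top2a, which untangles DNA, 49.3 and 28.7 CPM against 406 and 310 CPM (-3.06 ± 0.53). No Stem value reached a TA value in these 3 genes.

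Nusap1 (-4.30 ± 0.64), Prc1 (-3.98 ± 0.61), Plk1 (-3.66 ± 0.35), Aurka (-3.20 ± 0.31) and Spc25 (-2.99 ± 0.36), all parts or regulators of the spindle, were lower as well. Mki67, the proliferation antigen, was the one that did not pass, with 75.7 and 28.1 CPM against 327 and 199 CPM (-2.21 ± 0.55). Against the mean of all 8 types, 3 of the 22 were higher (Ccnb2, Cdc20 and Hmgb2), and the list's median of -0.08 became 0.53 at 5000 UMIs per cell and 0.35 without mouse 2.

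Among cyclins and inhibitors, Ccne1 (3.07 ± 0.45) and Ccne2 (2.46 ± 0.56), the cyclins of S phase entry, and Cdk6 (1.87 ± 0.15) were higher than in the mean of the other types. Cdkn2b, an inhibitor of CDK4 and CDK6, had 6.17 and 4.99 CPM in Stem cells and 64.3 and 33.8 CPM in TA cells, and was lower against both the mean of the other types (-2.65 ± 0.32) and TA cells (-2.99 ± 0.32). Cdkn1a, the inhibitor p21, had 19.6 and 28.7 CPM and was lower against the mean (-2.86 ± 0.53).

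Single cells were then compared at 5000 UMIs. At least 3 UMIs of the S phase list were found in 77.9% of Stem cells of mouse 1 (70.0 to 84.6) and 61.5% of mouse 2 (52.1 to 70.4), against 82.2% and 65.3% of TA cells. For the G2 and mitosis list the shares were 60.3% (51.6 to 68.6) and 43.6% (34.4 to 53.1) of Stem cells and 100% of TA cells in both mice. A median Stem cell held 3 and 2 UMIs of that list and a median TA cell 23 and 18.

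Since 37 Stem cells of each mouse lay within 1 UMI of the limit, the Stem share depends on it, with a mean over the 2 mice of 32.2% at a limit of 5 UMIs against 51.9% at 3. Enterocytes gave 6.88% and 14.4% for the G2 and mitosis list and 5.48% and 7.85% for the S phase list. Goblet progenitors, with 72.2% and 61.9% for the S phase list, stood near Stem and TA cells. For the G2 and mitosis list goblet progenitors gave 84.6% and 88.1%, above Stem cells. The authors' classes were made from expression that includes these genes, so the TA share of 100% is a property of that class.

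**Figure D4:**
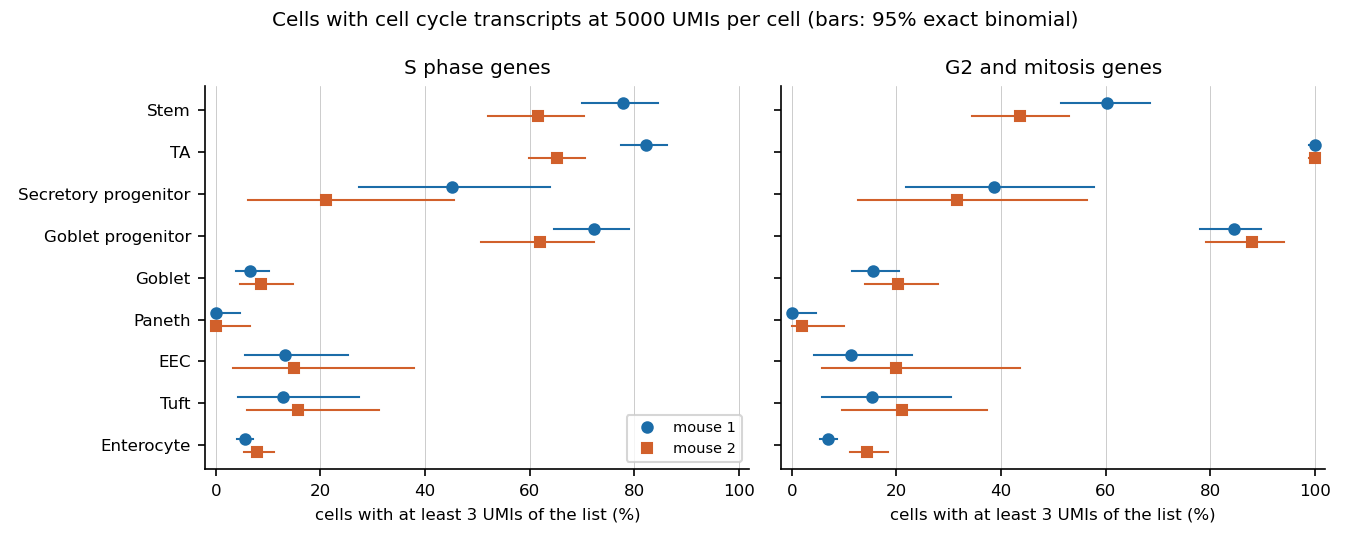
Share of cells with at least 3 UMIs of the S phase list (left) and of the G2 and mitosis list (right) in percent, by type and mouse, after thinning each cell to 5000 UMIs; lines are 95% exact binomial intervals. Stem cells lie beside TA cells and goblet progenitors for S phase genes (77.9% and 61.5% of Stem cells). For G2 and mitosis genes Stem cells lie below both (60.3% and 43.6% against 100% of TA cells).

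The Stem cells of the 2 mice were not alike in every gene. With 1 library per mouse there is no test of a difference between animals. Among 2654 genes with at least 50 CPM in the Stem cells of either mouse, 111 (4.18%) were at least 2-fold higher in mouse 2 and 156 (5.88%) at least 2-fold higher in mouse 1. Scaling with TMM factors turned this balance, giving 116 genes higher in mouse 2 and 77 in mouse 1 among 2143 genes. Olfm4 was 21.8-fold higher in mouse 1, and it was also higher in mouse 1 in TA cells, EEC, goblet progenitors and secretory progenitors. Hopx, a homeodomain-only protein, stood at 166 and 19.3 CPM in Stem cells, and at 109 and 25.5 CPM in TA cells, higher in mouse 1 in both types. H2-Eb1, a class II chain, was higher in mouse 2, with 29.7 and 127 CPM, as was Myc, and H2-Aa, another class II chain, was higher in mouse 1, with 154 and 63.6 CPM.

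The genes with the widest gaps were of 3 kinds. Secretory and antimicrobial products were in mouse 1: Reg3b had 214 and 3.12 CPM (68.7-fold), Defa24 149 and 0 UMIs, Lyz1 128 and 0 UMIs, and Agr2 90 and 0 UMIs. Ccl5, a chemokine of lymphocytes, had 0 UMIs in mouse 1 and 92 in mouse 2. No fold is given where a mouse is at 0, because the deposited matrices hold 302472 and 176897 entries stored as 0, and whether ambient RNA had been subtracted from them is not stated. Rps18, Rpl27 and the gene models Rpl23a-ps3 and Gm8730 were higher in mouse 2, and Gm10260 in mouse 1. Ribosomal protein genes have many processed copies in the genome, so these values are given as uncertain, and the part of shared reads was not tested.

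The Paneth list in these cells followed the first kind, at 201 CPM in mouse 1 and 10.0 CPM in mouse 2, and the intraepithelial lymphocyte list followed Ccl5, at 1.12 and 91.6 CPM. Lyz1, lysozyme of Paneth cells, was in 22.8% of Stem cells, 5.94% of TA cells and 3.12% of enterocytes of mouse 1 at 5000 UMIs, and in none of the 117 Stem cells, 323 TA cells or 382 enterocytes of mouse 2. The part of such RNA in the differences between the mice was not tested.

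**Figure D5:**
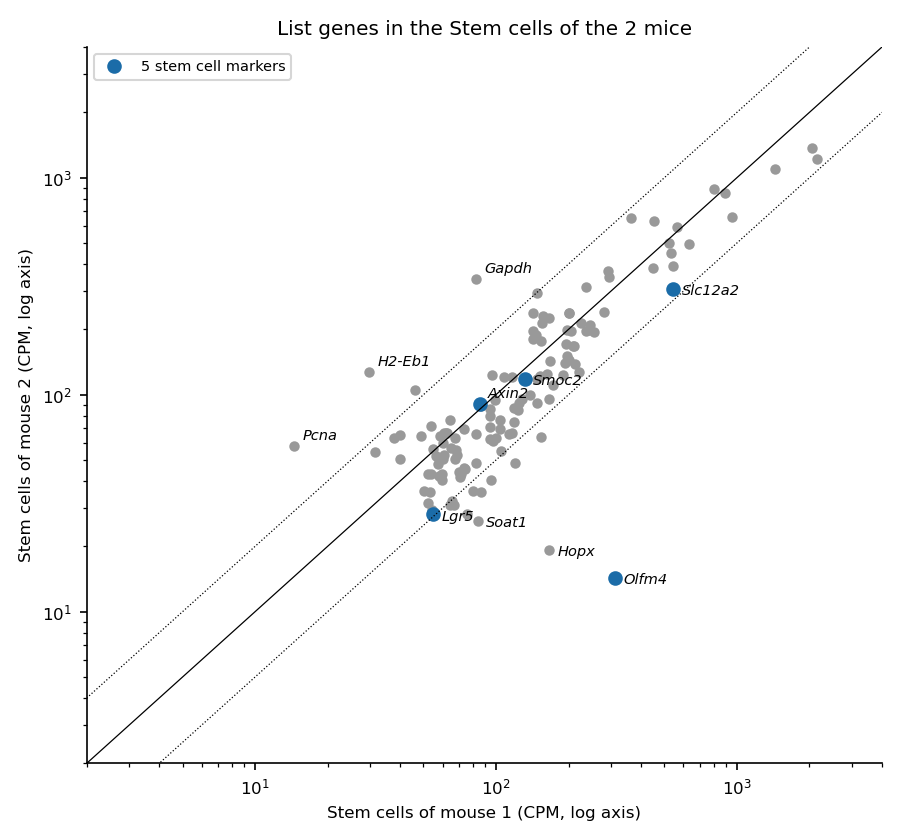
Levels of 133 list genes with at least 50 CPM in either mouse in the Stem cells of mouse 1 (horizontal) and mouse 2 (vertical), in CPM on log axes; the solid line marks equal levels and the dotted lines a 2-fold difference. Names mark the 5 stem cell markers and the genes at least 3-fold apart, with Olfm4 (313 and 14.3 CPM) and Hopx (166 and 19.3 CPM) farthest below the line.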

How the data were processed

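Jejunal crypt cells of 2 375KO mice were profiled with 10x 3' libraries. Reads were counted by the authors with Cell Ranger 3.0.1 on an mm10 reference, and the deposited matrices hold UMI counts per gene and barcode. The study states that ambient RNA was removed with SoupX, and whether this applies to the matrices is not given in the sources used here. Cells with at least 1500 genes and at most 25 percent mitochondrial reads were kept by the authors, a percent that is deposited per cell, and doublets were removed with scDblFinder. The cells were integrated and clustered in Seurat at resolution 0.7 and named from module scores (the labels list Seurat 3.2.1). Deposited sctransform values were not used, nor were 2937 cell columns and 6059 doublet rows of another series.

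The annotation was joined to the matrices by barcode for all 3275 cells, and 0 barcodes were shared between libraries. UMI counts were summed per mouse and type, giving 18 sums over 9 epithelial types, with intraepithelial lymphocytes left out. Sums were fitted in edgeR 4.0.16 (R 4.3.3) with filterByExpr, TMM scaling, a term for type and the mouse as a block, followed by robust quasi-likelihood tests and Benjamini-Hochberg adjustment at 0.05. The mouse is a block because every type came from the same 2 animals, which the labels give as replicate 1 and 2 (mouse 1 and mouse 2 here). CPM are not TMM scaled. Shares use cells thinned to 5000 UMIs, exact Clopper-Pearson intervals from scipy 1.17.1 and Poisson intervals for levels, and the limit that a count of 0 allows is the exact bound for shares and 3 UMIs for levels.

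The 24 gene lists hold 362 genes, of which 321 could be tested, and genes in several lists count in each. Genes were named as all markers, up to 4 members of each list by size among those past the threshold in the same direction in both mice, members central to a list whatever their call, the 12 highest and 6 lowest outside the lists, 8 each way against TA cells and 5 each way between the mice. The members, lists and rules were chosen with earlier results of these data known. On simulated sums for the comparison with the other types, over 9756 genes, 57% of 2-fold and 98% of 4-fold changes were recovered with 12 false calls. These sums shared a common mean profile and a fixed dispersion, with no mouse effect, no differences among the other types and changes only in abundant genes. The rates therefore show that the test runs as intended and do not give the error rates on the real sums. Alternatives were DESeq2 1.42.0, no filter, no block, thinned cells, a stricter cell filter (at least 2500 genes, at most 10% mitochondrial reads), no Paneth sums, pooled other cells and leaving out each mouse. Data were handled with Python 3.11.15, numpy 2.4.6, pandas 2.3.3 and matplotlib 3.10.9. Gene positions were taken from GENCODE annotation of mm10. 1 gene that the rule names is not reported here.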

Additional observations from a re-analysis of the deposited data

How the results depend on the processing

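The count of genes that differed from the mean of the other types, 2815, was 1019 without the mouse as a block, 1765 in thinned cells, where 8265 genes were tested, and 4388 against the pooled other cells. It stayed within 1.5 times under the other 4 tested settings, from 1908 to 2771. Against TA cells 532 of 11013 genes became 834 of 17626 with no filter on low counts and 70 of 11013 with no replicate block. Of those 70 genes 9 were higher in Stem cells, compared with 209 of the 532. The count lay between 366 and 663 under the other settings. The mean share of Stem cells with G2 and mitosis transcripts, 51.9%, was 32.2% at a limit of 5 UMIs and 64.6% at 8000 UMIs per cell. Between the mice 267 of 2654 genes became 152 of 1359 at a limit of 100 CPM and 193 of 2143 with TMM factors. The Stem share ran from 6.68% to 9.81% when either mouse was left out. Named genes kept their direction in all 375 settings with a value, while 26 calls were lost, 15 of them against TA cells, and 7 gained. Olfm4 passed against TA cells in 4 of 6 tested settings and Slc12a2 in 3. Axin2 was lost there without the block, with the stricter filter (0.57) and with DESeq2, and Smoc2 without the block. Outside the markers, Rgcc and Prc1 passed against TA cells in 4 of 6 tested settings. Igfbp4, Acot1, Ifitm3, Ascl2 and Cdca7 passed in 5, and Pdgfa in all 6. Against the pooled cells Otc was at 0.13 and did not pass, Fgfbp1 moved from 2.28 to 0.81 and Olfm4 from 5.93 to 4.01, and without mouse 1 Olfm4 was at 3.05. The causes were not tested. The stricter filter kept 53 and 90 Stem cells, and at the median depth a Stem cell without a UMI of a marker cannot be called negative for it.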

Other observations

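At 5000 UMIs per cell, 83.1% of Stem cells of mouse 1 and 75.2% of mouse 2 held at least 3 UMIs of the S phase list or of the G2 and mitosis list. The shares were 100% of TA cells in both mice, 88.3% and 90.5% of goblet progenitors and 11.3% and 19.9% of enterocytes. Secretory progenitors gave 61.3% and 47.4%. The Stem shares depend on the limit and were 72.1% and 60.7% at 5 UMIs. No UMI of any of the 5 stem cell markers was seen in 7 Stem cells of mouse 1 and 19 of mouse 2 at that depth. The secretory progenitor list summed to 227 and 181 CPM in Stem cells and to 1640 and 2053 CPM in secretory progenitors.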
